A study of Rattus norvegicus with 6 samples.

Results

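The untreated cultured ovary at postnatal day 4 was described from its 3 control arrays, out of 6 arrays in the series. They were chosen by their titles, which name a control and a biological replicate 1, 2 or 3. Each array held RNA of 2 to 3 ovaries, homogenised together, from 4-day-old female Sprague-Dawley rats, and the ovaries had been kept whole on floating filters for 48 h with no added factor. The culture medium, shared by all 6 samples, was DMEM-Ham's F-12 with BSA, albumax, ascorbic acid, transferrin, gentamicin, streptomycin and penicillin. The other 3 arrays held ovaries of the same strain, sex and age cultured with 50 ng/ml of recombinant human NT3, and they serve here only as a range beside the control values. The titles call the replicates biological, but no label tells separate animals or litters apart, so part of the spread between them may be technical. Every value is therefore a description of 3 arrays, and no test was made.

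In the newborn rat ovary most oocytes are enclosed in primordial follicles, each a resting oocyte within a layer of flattened pregranulosa cells, and the first of these follicles begin to grow in the days after birth. Growing oocytes build the zona pellucida, an extracellular glycoprotein coat, and secrete growth factors of the TGF-beta family that act on the granulosa cells around them. The follicles lie in a stroma of fibroblast-like cells with vessels and resident leukocytes, under a surface epithelium that carries keratins. Theca cells, which make androgens, form around follicles that have begun to grow.

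Array replicate 2 stood apart from the other control arrays in its 3′ to 5′ ratios, which compare probe sets near both ends of one transcript and rise where the 5′ part gives less signal. The beta-actin ratio was 2.42 in control replicate 1, 6.83 in replicate 2 and 2.60 in replicate 3, against 2.78 to 2.91 in the NT3 arrays. Replicate 2 was the highest of all 6 arrays, and its beta-actin 5′ signal of 719.8 lay below the 1806 and 1914 of replicates 1 and 3, while its 3′ signal of 4918 lay between their 4364 and 4980.3. The GAPDH ratio was 1.09, 1.70 and 1.14 in control replicates 1 to 3 and 1.21 to 1.25 in the NT3 arrays. The median signal per control array was 71.1 to 75.0, on a common scale with a trimmed mean of 210.06. The list medians, and the ranks of several genes that it moved, are also given without it.

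**Figure D1:**
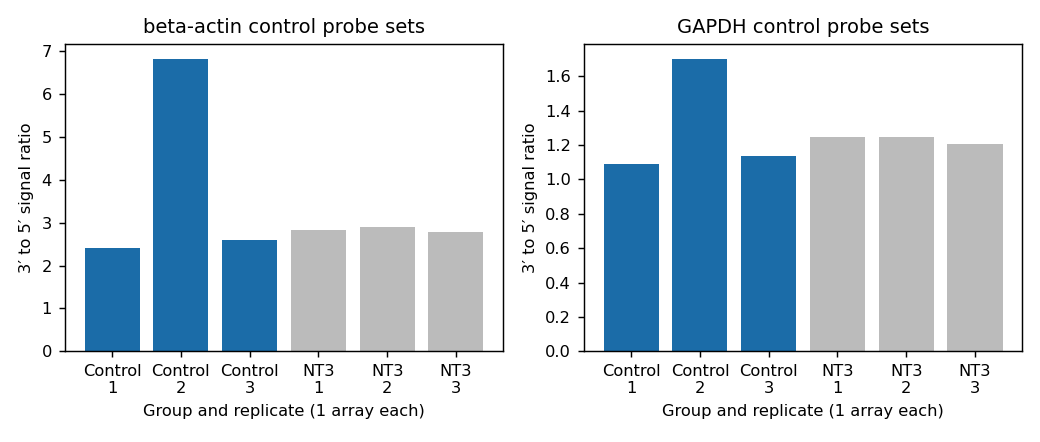
Bars show the 3′ to 5′ signal ratio (no unit) of the beta-actin (left) and GAPDH (right) control probe sets on each of the 6 arrays, controls in blue and NT3 in grey. Control replicate 2 has the highest bar in both panels, at 6.83 and 1.70.

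Genes were ordered by their mean log2 signal over the 3 control arrays, each gene by its brightest probe set. The array named 14217 genes, and rank 1 and percentile 100 stand for the highest signal. A rank orders the signals of different probe sets, which bind their transcripts with different strength, so it does not order amounts of transcript. A signal line at the 40th percentile of all probe sets, a signal of 41.8, stood in for a detection call, and 10596 genes (74.5%) lay above it. The 10% of genes with the highest signal began at a signal of 1029. The 22 gene lists had 509 members with a named probe set out of 646, and no gene stood in more than 1 list. In a whole organ, fewer cells of a type and less RNA per cell cannot be told apart.

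Genes of protein synthesis and respiration held the highest ranks. Of the 25 genes with the highest signal, 21 encode cytosolic ribosomal proteins and 2, COX1 and COX2, encode mitochondrial subunits of cytochrome c oxidase, the last enzyme of the respiratory chain. COX1 was first, with signals of 15519, 20944 and 16317 in replicates 1 to 3, followed by Rps29 at 13980.2, 20013 and 15592. The others were Tmsb4x, which encodes the actin-binding peptide thymosin beta 4, at rank 13, and Eef1a1, which brings aminoacyl-tRNA to the ribosome, at rank 20. Replicate 2 gave the highest of the 3 signals for 24 of these 25 genes and replicate 1 the lowest for all 25, on the deposited scale. COX2 was the exception, at 13946, 15851 and 15936. Of the 10596 genes above the line, replicate 2 was the highest for 48.5% and replicate 1 the lowest for 32.2%. Among the 100 highest genes were 38 of the ribosome, 7 of respiration, 3 of the stroma and 2 of the surface epithelium, and none of the oocyte, granulosa or macrophage lists.

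**Figure D2:**
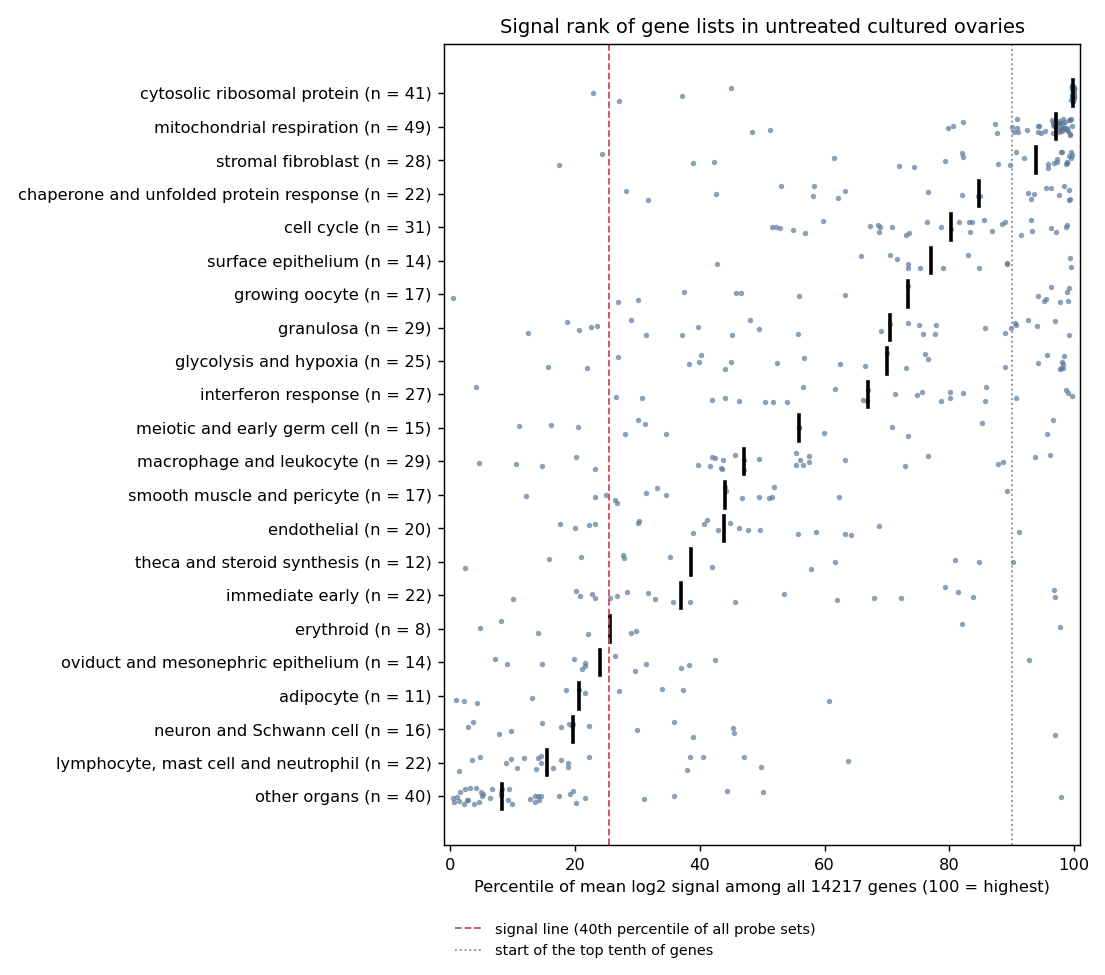
Each point is 1 gene of the list named on the vertical axis, placed by the percentile of its mean log2 signal among 14217 genes (horizontal axis, 100 the highest), and black bars are medians. The medians run from 99.8 for cytosolic ribosomal protein genes and 93.9 for stromal genes down to 8.23 for genes of other organs, and the dashed line marks the signal line.

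Leaving out replicate 2 kept some list medians and shifted others. The median percentile was then 93.9 for stromal genes, 75.0 for growing oocyte genes, 74.3 for surface epithelium genes and 73.0 for granulosa genes, against 93.9, 73.4, 77.1 and 70.4 over all 3 arrays. The order of the surface epithelium and the oocyte lists was turned by that array. For macrophage genes it was 50.8 against 47.1, for endothelial genes 45.4 against 43.9, and for theca genes 38.6 in both.

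Among oocyte genes, Zp2 and Zp3 of the zona pellucida had the highest signals. Zp2 had signals of 4897, 4981 and 4533 in replicates 1 to 3, a mean of 4804 ± 238 (SD, n = 3), and ranked 110. Zp3, which encodes another glycoprotein of the coat, gave 4363, 4212 and 4281, or 4285 ± 75.4 (SD, n = 3), at rank 140. Their 3 arrays were close together, replicate 2 included, with an SD of the log2 signal of 0.07 and 0.03 against a median of 0.19 for genes above the line. Ooep, a member of the subcortical maternal complex of the egg, followed at rank 162 with 3427, 3762 and 4793, where replicate 3 was the highest. Without replicate 2 these genes ranked 109, 129 and 154.

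The sequences before the transcription starts of Zp3 and Ooep are shown because these were the oocyte-restricted genes of the highest rank with an entry in the RefSeq promoter table of the GRCr8 assembly. Each is the 250 bases upstream of the start, on the coding strand, and capitals mark every CANNTG, the E-box bound by basic helix-loop-helix factors. Zp3 lies at chr12:26334127-26334376 and Ooep at chr8:88104849-88105098, both on the minus strand.
Zp3: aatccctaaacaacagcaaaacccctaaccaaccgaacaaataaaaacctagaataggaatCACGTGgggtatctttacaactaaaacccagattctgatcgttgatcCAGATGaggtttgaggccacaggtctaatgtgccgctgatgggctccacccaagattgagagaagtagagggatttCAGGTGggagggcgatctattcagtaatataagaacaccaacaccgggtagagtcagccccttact
Ooep: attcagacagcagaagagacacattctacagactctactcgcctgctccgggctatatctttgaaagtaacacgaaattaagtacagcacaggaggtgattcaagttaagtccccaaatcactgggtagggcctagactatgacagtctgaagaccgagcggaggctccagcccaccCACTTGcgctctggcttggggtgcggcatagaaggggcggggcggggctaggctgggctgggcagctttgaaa
The Zp3 window held 3 matches, at -189, -142 and -66 from the start, and the Ooep window held 1, at -73. CANNTG is its own reverse complement, so a match counts on both strands, and 65.5% of the 33469 windows of this length in the table held it. A match is a description of the letters and was not tested for binding. Figla, a factor of this class known as an activator of zona pellucida genes, had no named probe set here.

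Other oocyte genes ranked lower, over a wide range. Of 40 genes in the growing oocyte list 17 had a named probe set. Of these, 16 (94.1%) lay above the line, against 74.5% of all genes, and 8 in the top 10%. The median percentile of the 17 was 73.4 against 50 for all genes. Uchl1, a ubiquitin hydrolase abundant in oocytes and neurons, ranked 310 with 2604, 2996 and 2500.2. Tle6, another subcortical maternal complex member, ranked 526, followed by the RNA-binding genes Elavl2 at 648 and Cpeb1 at 680. Zp1, another zona pellucida gene, had 288.9, 311.9 and 282.5 at rank 5214. Mos, a kinase of meiotic arrest in the egg, was the sole member below the line, at 1.7, 0.5 and 1.8. No probe set was named for 23 of the 40, among them Nobox, Figla, Nlrp5 and Zar1.

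Of the oocyte genes above the line, Bmp15 and Kit differed most between arrays, and Gdf9 was also lowest on replicate 2. Gdf9, a growth factor of the TGF-beta family that oocytes secrete, gave 1824, 1150.2 and 1618 and ranked 817, or 652 without replicate 2. Bmp15, its close relative, gave 240.2, 53.4 and 240.5, so that replicate 2 was 2.17 log2 units below the mean of the other control arrays. Its rank was 7698 over 3 arrays and 5934 without replicate 2. Kit, the receptor through which granulosa-derived ligand acts on the oocyte, gave 103.2, 23.2 and 88.0, at rank 9950 and at 8837 without replicate 2. For Bmp15 and Kit replicate 2 was also below all 3 NT3 arrays, whose signals were 127.6 to 232.5 for Bmp15 and 66.7 to 74.6 for Kit. The Gdf9 signal of replicate 2 lay within the NT3 range of 925.7 to 1687.3. Each of these genes was read by a single probe set.

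Genes of meiosis and early germ cells had a median percentile of 55.9. Of 15 measured members 12 (80.0%) lay above the line, against 74.5% of all genes, and 2 in the top 10%. Tdrd1 and Tex15, which act in germline transposon silencing and in meiotic recombination, stood highest, at ranks 477 and 622. Tdrd1 had signals of 2302, 2139 and 1815, and Tex15 of 1977, 1604 and 1779. Sycp3, a lateral element protein of the synaptonemal complex that pairs chromosomes in prophase, ranked 2092 with 686.4, 888.7 and 736.0. Sycp1, which joins the paired chromosomes, lay at rank 9932 with 72.8, 40.3 and 72.7. Spo11, which makes the breaks that start recombination, lay below the line at 17.2, 20.9 and 20.8, as did Msh5 and Syce3. The defining germ cell genes Ddx4 and Dazl had no named probe set.

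Granulosa genes had a median percentile of 70.4. Of 29 measured members 24 (82.8%) lay above the line, against 74.5% of all genes, and 6 in the top 10%. Gja1, which encodes the gap junction protein connexin 43 and is also expressed in stroma, stood highest at rank 112, with 4144, 5777 and 4573. Wt1, a transcription factor of the somatic gonad and the surface epithelium, followed at rank 438 with 2148, 2257 and 2166. Its arrays lay within an SD of 0.04 log2 units, and Gja1 was highest on replicate 2. Fst, whose product follistatin binds activin, gave 1099, 2155 and 1336 at rank 847, again highest on replicate 2, and 1152 without it. Amhr2, the receptor for anti-Mullerian hormone, ranked 1051.

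Other hormones, ligands and regulators of granulosa cells ranked lower than Amhr2. Amh itself, the hormone made by granulosa cells of growing follicles, gave 251.2, 200.8 and 216.0 at rank 6292. Foxl2, a transcription factor that maintains granulosa identity, gave 621.9, 481.5 and 478.8 at rank 3176, and Kitlg, the ligand of Kit, 363.3, 320.0 and 496.1 at rank 4206. On no array did the probe sets used for these genes depart by more than 2-fold. A dimmer probe set of Kitlg did, by -2.26 log2 units on replicate 2. Inha, the inhibin alpha subunit, gave 996.9, 543.6 and 896.0, lowest on replicate 2, with rank 2023 over 3 arrays and 1582 without it. The beta subunits Inhba and Inhbb, which form activin or inhibin, ranked 3438 and 3540. Cyp19a1, the aromatase that makes oestradiol, and Esr2, the oestrogen receptor of granulosa cells, lay below the line, at 21.5 to 26.0 and 8.0 to 19.4. Rspo1, Slc18a2 and Fam13a were also below it, and Fshr had no named probe set.

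Theca and steroid synthesis genes had a median percentile of 38.6, below the 50 of all genes. Of 12 measured members 9 (75.0%) lay above the line, near the 74.5% of all genes. Fdx1, which passes electrons to mitochondrial steroid hydroxylases and serves other tissues too, ranked 1403 with 1016, 1033 and 1078. Hsd3b1, which makes progesterone from pregnenolone, ranked 2714 with 641.5, 492.8 and 721.7. Aldh1a1, a retinaldehyde dehydrogenase, gave 1141, 556.3 and 656.4, with replicate 1 the highest. Other genes of steroid production had lower signals. Star, which moves cholesterol into the mitochondrion, gave 91.1, 74.1 and 82.3 at rank 9209. Cyp17a1, the enzyme that opens androgen synthesis, gave 42.9, 48.5 and 63.1 at rank 10269, and the luteinizing hormone receptor gene Lhcgr ranked 10291. Cyp11a1, which cleaves the side chain of cholesterol, and Insl3, a theca peptide hormone, lay below the line.

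**Figure D3:**
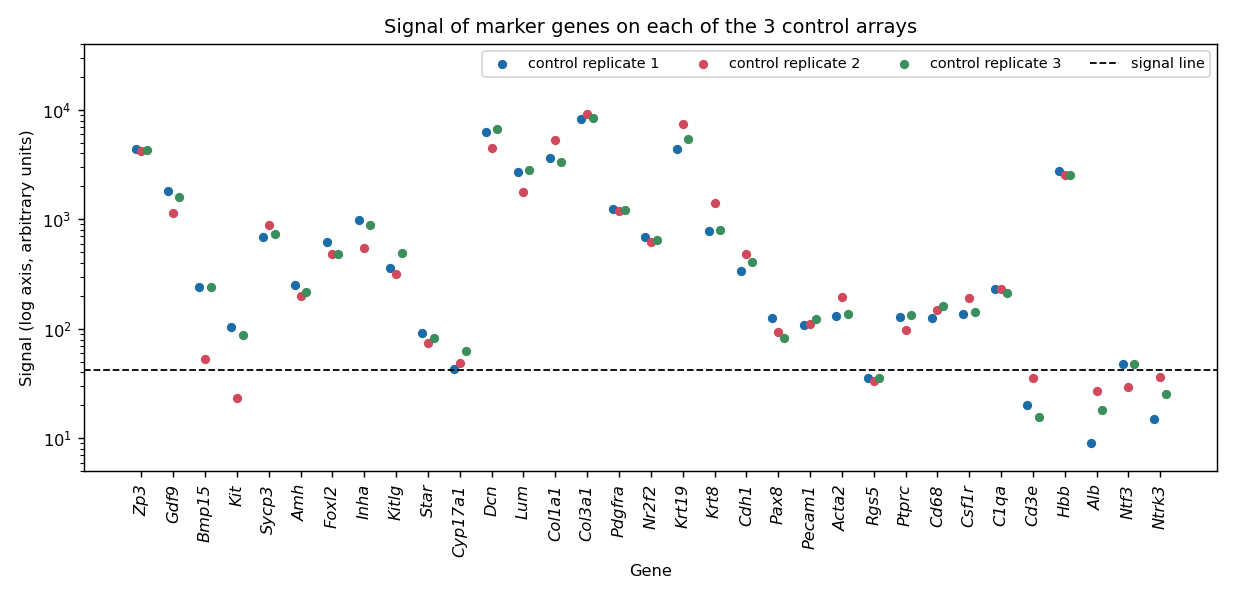
The vertical axis is the signal on a log scale (arbitrary units) and the horizontal axis names marker genes, with 1 point per control array and the signal line of 41.8 dashed. The 3 points nearly coincide for Zp3 and Pdgfra, while replicate 2 (red) is the lowest for Bmp15 and Kit, at 53.4 and 23.2, and the highest for Krt19 and Krt8.

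The stroma had the highest median percentile of the cell type lists, 93.9. Of 28 measured genes 26 (92.9%) lay above the line, against 74.5% of all genes, and 16 in the top 10%. Col3a1, a fibrillar collagen, ranked 49 with 8273, 9083 and 8374, or 8577 ± 441 (SD, n = 3). Dcn, the small proteoglycan decorin that coats collagen fibrils, ranked 80 with 6258, 4521 and 6651. Mgp, an inhibitor of calcification, ranked 81 and Vim, the intermediate filament of mesenchymal and many other cells, 123. Col1a1 gave 3611, 5301 and 3315 at rank 157. Replicate 2 was the highest array for Col1a1 and the lowest for Dcn, Lum and Ogn, so that the matrix genes did not shift together.

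Lum, a further collagen-binding proteoglycan, gave 2711, 1766 and 2813 at rank 379, and Ogn 2981, 1687 and 4024 at rank 305. For Dcn and Lum replicate 2 lay below all 5 other arrays. Pdgfra, the growth factor receptor that marks stromal and theca progenitors, gave 1253, 1184 and 1213 at rank 1133. Nr2f2, a nuclear receptor of the ovarian stroma, gave 694.6, 622.8 and 644.2 at rank 2527. Both receptor genes kept within an SD of 0.08 log2 units over the arrays. Thy1 and Nr2f1 were the members below the line.

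Contractile and pericyte genes had a median percentile of 44.1. Of 17 members 14 (82.4%) lay above the line, against 74.5% of all genes, and none in the top 10%. Myl9, a myosin light chain, ranked highest at 1519 with 898.0, 1021 and 995.3. Acta2, the smooth muscle actin, gave 132.1, 196.4 and 135.4 at rank 7575, and Tagln, which binds actin filaments, 128.7, 333.3 and 151.5. Both were highest on replicate 2. Rgs5, a pericyte gene, lay under the line at 35.8, 33.3 and 35.9. Endothelial genes had a median percentile of 43.9, with 16 of 20 (80.0%) above the line, against 74.5% of all genes. Kdr, the main receptor for VEGF-A, ranked 1254 with 920.7, 1207 and 1288, whereas Pecam1, a junction protein of endothelium, gave 108.1, 110.3 and 124.1 at rank 8435. The other endothelial members above the line ranked between 4457 and 9937, and Cdh5 had no named probe set.

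Surface epithelium genes had a median percentile of 77.1, and all 14 measured members lay above the line, against 74.5% of all genes. Igfbp5, which binds insulin-like growth factors and is made in stroma and granulosa as well, ranked 79 with 4998, 6747 and 5891. Krt19, a keratin of simple epithelia, ranked 83 with 4409, 7363 and 5444, and 102 without replicate 2. Krt8, its filament partner, gave 788.6, 1408 and 796.6 at rank 1535, or 1995 without replicate 2, and Lrrn4, a mesothelial membrane protein, ranked 1536. Cdh1, the epithelial cadherin, gave 335.3, 478.2 and 406.6 at rank 4043. By the probe set used, replicate 2 was above the mean of the other control arrays in all 14 genes. Upk3b had no named probe set. Of the oviduct and mesonephric epithelium list, 7 of 14 (50%) lay above the line, against 74.5% of all genes. Its median percentile was 24.0. Spp1, a secreted phosphoprotein that macrophages make too, was at rank 1034 with 1218, 944.5 and 1905, or 791 without replicate 2, and Pax8, a transcription factor of oviduct epithelium, at 8774 with 124.8, 94.5 and 83.3. Foxj1, which drives ciliogenesis, and Pax2 lay below the line.

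Macrophage and leukocyte genes had a median percentile of 47.1. Of 29 measured members 24 (82.8%) lay above the line, against 74.5% of all genes, and 2 in the top 10%. Cd48, a surface protein of blood cells, ranked 556 with 2143, 1341 and 2316, or 425 without replicate 2, and Lyz2, the lysozyme of myeloid cells, 890 with 1359, 1429 and 1486. Cd74, the invariant chain of MHC class II, gave 642.6, 1282 and 968.7. Common leukocyte markers had lower signals. Ptprc, the pan-leukocyte phosphatase CD45, gave 128.5, 98.6 and 134.3 at rank 8300. Csf1r, the growth factor receptor of macrophages, gave 136.3, 192.1 and 141.4 at rank 7523, and Cd68, a lysosomal protein, ranked 7737. C1qa, a complement subunit made by resident macrophages, gave 229.1, 233.8 and 212.5 at rank 6240. Cd163, Trem2, Cx3cr1, Itgam and Csf3r were below the line.

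Of the lymphocyte, mast cell and neutrophil list, 6 of 22 (27.3%) lay above the line, against 74.5% of all genes. The median percentile was 15.5. Cd3g, a T-cell receptor chain, gave 267.4, 352.3 and 284.2 at rank 5144. Its partners in that complex differed. Cd3d lay above the line at 106.6, 108.1 and 87.4, and Cd3e below it at 20.0, 35.7 and 15.6. The T-cell kinase gene Lck lay above the line at 114.0, 100.6 and 126.2, whereas Cd247, Cd2, Cd4, Cd5, Cd8a and Cd8b lay below it. The mast cell protease genes varied most of those above the line. Mcpt1 gave 122.1, 74.1 and 405.4, and Cpa3 gave 111.4, 45.3 and 180.1. In both the order of arrays was the same, with replicate 3 the highest and replicate 2 the lowest. The other mast cell genes measured, Tpsb2 and Ms4a2, lay below the line and had other orders. Tpsb2 gave 53.1, 19.3 and 32.3, highest on replicate 1, and Ms4a2 gave 9.4, 31.2 and 16.5, highest on replicate 2. The NT3 arrays ranged from 55.7 to 304.5 for Mcpt1. Hbb, a beta globin, ranked 330 with 2746, 2527 and 2532, and Hba-a3, an alpha globin, 2562. Of the erythroid list 4 of 8 measured members (50%) lay above the line, against 74.5% of all genes. Alas2, which starts haem synthesis in red cell precursors, and Hemgn were just above it at ranks 9977 and 10100, and Klf1, Ahsp, Epb42 and Slc4a1 were below it.

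Genes of other organs gave the lower end of the scale. The list for other organs had a median percentile of 8.23, with 5 of 40 (12.5%) above the line, against 74.5% of all genes. Alb, the liver's serum albumin, gave 9.0, 27.3 and 18.1. Myh1, a fast skeletal muscle myosin, was the exception at rank 288 with 2589, 3207 and 2584. All 5 of its probe sets had mean signals of 805 or more, while the muscle genes Ckm, Acta1 and Tnnt3 lay below the line. The assignment of these probe sets to Myh1 comes from the array annotation and is in doubt, so the signal may not be that of this gene. Of the neuron and Schwann cell list 6 of 16 (37.5%) lay above the line, against 74.5% of all genes. Prph, the peripheral neuron filament peripherin, ranked 427 with 1762, 2733 and 2304. Nefm, S100b, Mbp, Gap43 and Th also lay above the line, with lower signals, while Tubb3, Snap25, Stmn2 and Sox10 were among those below it. The NT3 gene Ntf3, with 48.3, 29.6 and 48.3 at rank 10632, lay just below the line, and its receptor kinase gene Ntrk3 lay below it at 15.0, 36.7 and 25.6.

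Replicates 1 and 3 were closer to each other than either was to replicate 2. Across the 10596 genes above the line, which share arrays and are not independent points, log2 signals correlated at r = 0.985 between replicates 1 and 3, 0.964 between 1 and 2, and 0.965 between 2 and 3. The median gene differed 1.11-fold between replicates 1 and 3 and 1.20-fold in both pairs with replicate 2. More than 2-fold apart were 59 genes between replicates 1 and 3, 266 between 1 and 2, and 260 between 2 and 3. Of the 100 highest genes, 91 were shared by replicates 1 and 3, 87 by 1 and 2, and 89 by 2 and 3. Replicate 2 was the array farthest from the other control arrays for 52.7% of genes, against 23.6% for replicate 1 and 23.7% for replicate 3.

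**Figure D4:**
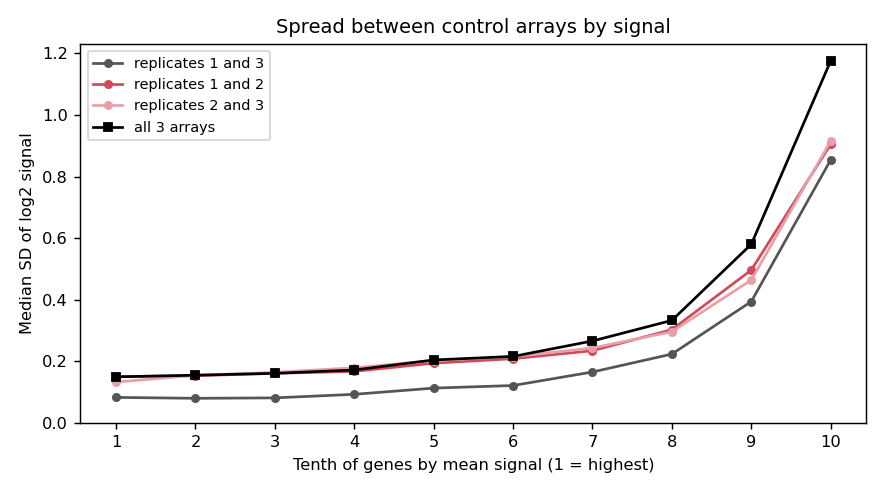
The vertical axis is the median SD of log2 signal over the 3 control arrays (black squares) or over each pair of them (circles), and the horizontal axis splits the 14217 genes by mean signal into 10 bins of equal size, 1 being the highest. The spread rises from 0.15 to 1.18 as the signal falls, and the pair without replicate 2 is the lowest line throughout.

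The spread depended on the signal. The median SD of log2 signal was 0.15 in the 10% of genes with the highest signal, 0.20 in the fifth of the 10 bins and 1.18 in the lowest, which lies below the line. Between replicates 1 and 3 alone it was 0.08 in the highest bin. Of the genes above the line, 504 (4.76%) had an SD over 0.5. The largest belonged to Kcne2, a potassium channel subunit, with 335.6, 201.6 and 7.0, and to Dxo, a decapping exonuclease, with 97.4, 210.2 and 17.2. Both had 1 array, replicate 3, far below the others, and ranked 9334 and 9571, close to the line. Next was Nrsn2 with 11.7, 114.1 and 69.0, low on replicate 1.

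A departure was taken as the log2 signal of 1 array minus the mean of the other control arrays. The departures of a gene cancel out over the control arrays, so a high value on 1 array lowers those of the others. Replicate 2 was more than 2-fold higher in 81 genes (0.764% of those above the line) and more than 2-fold lower in 134 (1.26%). Replicate 1 was higher in 34 (0.321%) and lower in 27 (0.255%), and replicate 3 higher in 31 (0.293%) and lower in 36 (0.34%). These counts use the brightest probe set of each gene. Over all 18625 probe sets above the line, a count added after the data were seen, replicate 2 was lower in 800 (4.3%) and higher in 169 (0.907%). Replicate 1 was higher in 212 (1.14%) and lower in 47 (0.252%), and replicate 3 higher in 161 (0.864%) and lower in 85 (0.456%). The lower departures of replicate 2 thus lay mostly in probe sets that the gene ranks do not use. Replicate 2 also lay above all 5 other arrays, controls and NT3, for 3825 genes (36.1%) and below all 5 for 2351 (22.2%). An array that stands apart can be the extreme of 6 in either direction, and these shares were not set against any chance level.

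The genes lowest on replicate 2 ran at a small part of their signal on the others. Ddx3x-ps1, annotated as a pseudogene of an RNA helicase, gave 430.2, 73.3 and 594.0, a departure of -2.79, and its signal may include that of the near-identical parent gene. Chm, which escorts Rab proteins to their lipid-attaching enzyme, gave 101.4, 14.7 and 100.7, a departure of -2.78. Atf2, a transcription factor of the CREB family, gave 144.4, 20.6 and 98.4, and Tnfaip6, a hyaluronan-binding protein of the cumulus matrix, 281.0, 40.7 and 120.6. All these were lower on replicate 2 than on every NT3 array. Bmp15 stood among the 10 genes with the lowest departures, with Prnd, Zfp534l1, Zyg11b, Pus3 and the scavenger receptor gene Cd36. Their departures ran from -2.79 to -2.05.

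Among the genes with the largest positive departures of replicate 2, Dxo, Kcne2, Nrsn2 and Trim62 each had 1 other array with a very low signal. Kcne2 was highest on replicate 1, at 335.6 against 201.6 on replicate 2. For Dxo replicate 2 was also the highest of all 6 arrays. Pkn3, a protein kinase, gave 36.7, 117.0 and 42.9, a departure of 1.56, and Tsc22d4, a leucine zipper protein, 116.7, 289.9 and 86.8, of 1.53. Mon1b, Cuedc1 and Spetex2l1 had the same order, with replicate 2 above both others by more than 2-fold. Isg15, a ubiquitin-like protein induced by interferon, gave 636.5, 2127 and 928.6, a departure of 1.47, against 363.6 to 1209 in the NT3 arrays.

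Whole gene groups leaned to replicate 2 in different directions. For all genes above the line the median departure of replicate 2 was 0.08, and 6244 of 10596 were above 0. It was 0.46 for the interferon response genes, with 23 of 26 above 0. Of these 26 genes, 20 (76.9%) lay above all 5 other arrays, against 36.1% of all genes above the line. Irf7, the regulator of interferon genes, gave 373.3, 914.0 and 599.0, and Mx2, an antiviral GTPase, 299.9, 598.6 and 352.3. Both were highest on replicate 2 and lowest on replicate 1, where the median departure of the list was -0.39.

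Surface epithelium genes had a median departure of 0.37 on replicate 2, with 14 of 14 above 0. Of these, 7 (50%) lay above all other arrays, against 36.1% of all genes above the line. Cytosolic ribosomal protein genes had 0.34, with 39 of 40 above 0 and 36 (90%) above all other arrays. Their median was 0.020 after quantile normalization, which gives the highest signals of every array the same values. That scaling left the interferon median at 0.47 and the surface epithelium median at 0.37. Mitochondrial respiration genes had 0.18, with 35 of 49 above 0. On replicate 1 these 3 lists had medians of -0.37, -0.27 and -0.24, and on replicate 3 of -0.06, -0.06 and 0.08. In these medians replicate 1 lay below replicate 3, whereas a high replicate 2 by itself lowers the departures of both alike. Endothelial genes had a median departure of -0.16 and meiotic genes -0.18 on replicate 2, with 5 of 16 and 4 of 12 above 0. The medians of the growing oocyte, granulosa and stromal lists, -0.01, 0.02 and 0.06, were nearer to 0 than those lists, and the oocyte median turned to 0.03 when each array was centred on its median. The 3′ to 5′ ratios were highest on replicate 2 too, and the part of RNA quality or of the amount of surface epithelium in these departures was not tested.

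**Figure D5:**
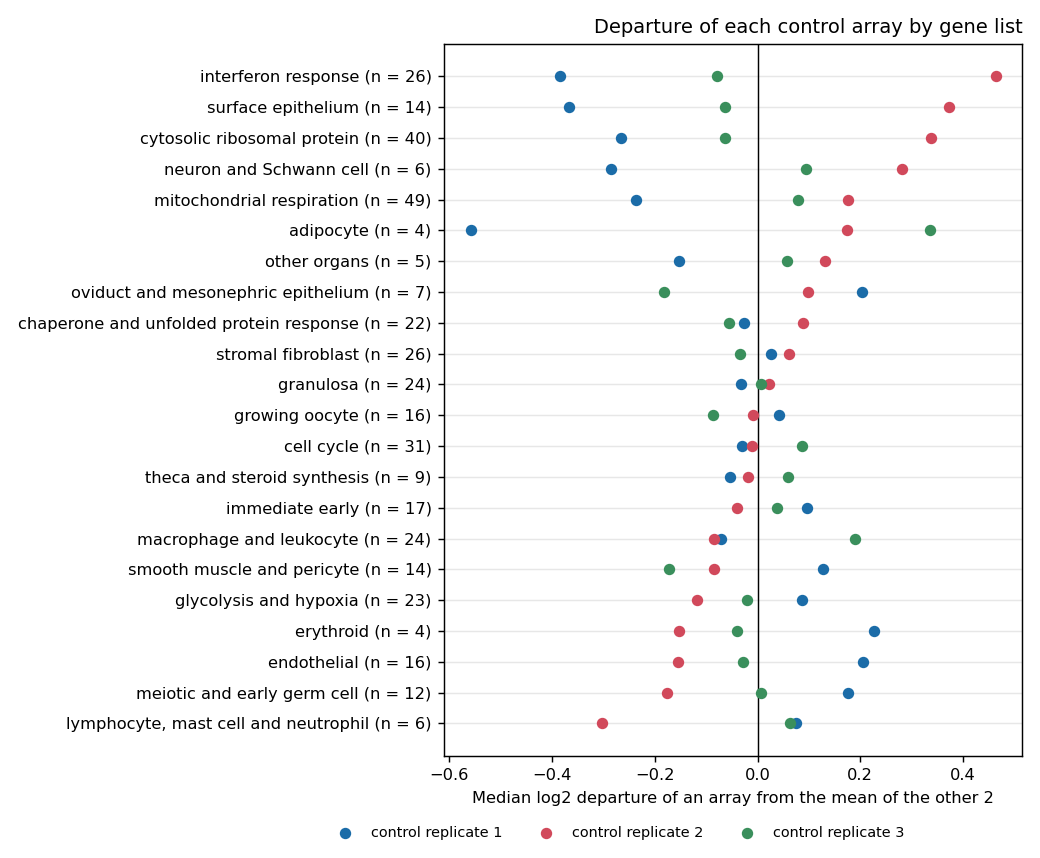
Each point is the median log2 departure of 1 control array from the mean of the other 2 (horizontal axis) over the members of a gene list above the line (vertical axis, with the number of genes). Replicate 2 (red) runs from 0.46 for interferon response genes to -0.30 for the lymphocyte, mast cell and neutrophil list.

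Probe sets of the same gene departed on replicate 2 by different amounts, in a comparison added after the data were seen. In 2752 genes with more than 1 probe set above the line, the brightest probe set stood higher relative to the others on replicate 2 by a median of 0.27 log2 units, against -0.18 on replicate 1 and -0.13 on replicate 3. It did so in 69.7% of genes on replicate 2, 29.8% on replicate 1 and 36.3% on replicate 3. Because departures cancel out over the control arrays, the values of replicates 1 and 3 partly restate that of replicate 2. The departures of a gene's probe sets spanned more than 2-fold in 20.6% of genes on replicate 2, 6.03% on replicate 1 and 4.76% on replicate 3. The positions of the probe sets along their transcripts were not used here.

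Igfbp5 shows the size of such differences. Its brightest probe set gave 4998, 6747 and 5891 in replicates 1 to 3, a departure of replicate 2 of 0.31, and another gave 1905, 3460.4 and 2358, of 0.71. By contrast, another probe set gave 1037, 311.8 and 1049, a departure of -1.74, and the next 636.5, 189.6 and 705.5, of -1.82. The dimmest of its 5 probe sets gave 102.3, 41.6 and 136, a departure of -1.50. Read by the brighter pair, the gene was highest on replicate 2, and by each of the others it was lowest there. For Kitlg the probe set used departed by -0.41, and a dimmer one, with 128.9, 27.9 and 138.4, by -2.26. Elavl2 had probe sets with departures of 0.31, -0.08 and -1.60. In Ogn all 4 probe sets were lower on replicate 2, by -0.75 to -2.57.

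Replicate 3 was set apart by fewer genes. Macrophage and leukocyte genes leaned to it, with 22 of 24 above the mean of the other arrays and a median departure of 0.19, against 4695 of 10596 and -0.03 for all genes above the line. Mcpt1 had the largest positive departure there, 2.09. Fam111a, a serine protease that acts at replication forks, gave 831.8, 403.3 and 2266, a departure of 1.97, and its NT3 arrays spanned 474.7 to 2060.3. Car3, a carbonic anhydrase abundant in fat and muscle, gave 85.0, 106.4 and 341.0, a departure of 1.84. Fabp4, the fatty acid binding protein of adipocytes, was also highest on replicate 3, with 50.6, 63.9 and 135.4. Of the adipocyte list 4 of 11 measured genes (36.4%) lay above the line, against 74.5% of all genes. All 4 were below the other arrays on replicate 1, by a median of -0.56. There 4839 of all 10596 genes above the line had a departure above 0, and the median of all was -0.03. The defining adipocyte genes Adipoq, Plin1 and Lep were below the line. The part of fat or mast cells carried with an ovary was not tested.

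Several signals above the line belonged to probe sets that the annotation does not tie to 1 gene. Of 10216 such probe sets 4400 (43.1%) lay above the line and 258 reached the signal of the 10% highest genes, the highest at 16032. They were left unnamed, so the ranks above omit them.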

How the data were processed

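Total RNA of cultured rat ovaries was labelled as biotin cRNA and hybridised to Affymetrix arrays of 1 colour. For every probe set and array the authors deposited a linear intensity, made with MAS5 (version not stated) per the submitters' processing notes. There were 31099 probe sets. The mean after trimming 2% at each end was 210.06 on each control array, so the deposited intensities shared a scale on which total RNA per ovary is not seen. Detection calls were not used here, and the number of arrays limits the precision.

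Groups and replicate numbers came from the titles. After 57 control probe sets were removed, the log2 of each intensity was taken without rescaling, with a floor of 0.1, which 2 probe sets with a 0 needed. Of 31042 probe sets 20826 had 1 gene symbol in the array annotation, 436 several and 9780 none. Identifiers of 20758 were found in the RefSeq table of GRCr8, and 0 symbols changed. Each gene was read by the probe set with the highest mean log2 signal. In 4525 genes with more than 1 probe set, the highest exceeded the next by a median of 2.89-fold. The signal line, the 40th percentile of mean log2 signal, was 5.39. Percentiles, medians and SDs were computed with Python 3.11.15, numpy 2.4.6, pandas 2.3.3 and scipy 1.17.1, and the ranking and departures were tested on simulated data. The alternatives were quantile normalization, centring each array on its median, averaging a gene's probe sets, leaving out probe sets shared between transcripts, an offset of 16 on the signal, a line at the 60th percentile, no line, and each array left out.

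The arrays, lists and alternatives were chosen with earlier results of these data known. Genes were named by a rule that left out symbols of unnamed loci. It took the 25 highest signals, the 4 highest members of each list, and a set of 38 marker genes. It also took the 10 largest departures of replicate 2 in each direction, the 4 largest of replicates 1 and 3, and the 10 largest SDs. Other list members named, and the probe sets compared within a gene, were chosen after their values were seen. The control arrays were compared with each other alone, and treatment was not tested.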

Additional observations from a re-analysis of the deposited data

How the results depend on the processing

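Each control array was left out in turn. The median percentile of the macrophage list then ran from 47.8 to 50.8, the highest without replicate 2, and that of the other organs list from 7.41 to 9.42; the medians of the remaining lists moved less than the spread between arrays. When a gene's probe sets were averaged, median percentiles were 80.8 for oocyte, 65.2 for meiotic, 57.2 for granulosa, 93.2 for stromal, 82.2 for surface epithelium and 56.3 for macrophage genes. In that setting replicate 1 was more than 2-fold higher in 66 genes, replicate 2 lower in 269 and replicate 3 higher in 49. The median departure of replicate 2 for other organs changed sign to -0.012, from 0.13.

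With an offset of 16 on the signal, departures past 2-fold fell to 14 higher and 12 lower for replicate 1, 47 higher for replicate 2, and 16 higher and 14 lower for replicate 3. With the line at the 60th percentile they were 7 and 5, 28 and 64, and 13 and 6. With no line they were 562 and 697, 919 and 673, and 539 and 676, and the median of the lymphocyte, mast cell and neutrophil list on replicate 2 turned from -0.30 to 0.084. The excess of lower over higher departures on replicate 2 was therefore present only in settings with a line. No test between groups was made, so no fit by replicate number was run. The limits are 3 arrays, a signal line in place of detection calls, 1 probe set per gene, and 10216 probe sets not tied to 1 gene.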

Other observations

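Lists of general cell activity gave signals over a wide range of ranks in the control arrays. Cell cycle genes had a median percentile of 80.3, with 31 of 31 measured genes above the signal line, against 74.5% of all genes. Ccnb2, a mitotic cyclin, gave 3748, 3775 and 3859 in replicates 1 to 3 at rank 172, and Pcna, the sliding clamp of DNA polymerases, 3502, 3603 and 4243 at rank 174. Ccnb1 gave 2559.9, 1649.9 and 2789, the lowest on replicate 2. Ccnd2, a D-type cyclin of granulosa cells, ranked 519, while Ccnd1 ranked 6712. Cyclin B is also stored in oocytes, and the part of dividing cells in the signals of this list was not tested.

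Chaperone genes had a median percentile of 84.8, led by Hsp90ab1 at rank 86, the mitochondrial co-chaperonin Hspe1 at rank 111 and the endoplasmic reticulum chaperone Hspa5 at rank 125. Ddit3, a transcription factor raised under endoplasmic reticulum stress, ranked 6670 and Hspa1a, the inducible heat shock protein, 10217 with 71.0, 46.1 and 43.9. Glycolysis and hypoxia genes had a median percentile of 70.1, and the enzymes Eno1, Pgk1 and Aldoa ranked 229, 250 and 280, whereas Adm, Hk2 and Slc2a3 ranked 11109, 11992 and 10407. Immediate early genes had a median percentile of 37.0, with 17 of 22 (77.3%) above the line, against 74.5% of all genes. Jund and Ier3 ranked 435 and 453, while Fos gave 170.4, 110.9 and 160.5 and Fosb lay below the line. Over these lists the median SD of log2 signal was 0.13 for cell cycle genes, 0.17 for chaperone and for glycolysis genes and 0.23 for immediate early genes, against 0.19 for all genes above the line.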
